A study of Cavia porcellus with 24 samples.

Results

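In 680 of the 1787905 cytosines that were covered by at least 50 reads in every group, methylation differed by 25 percentage points or more between sGC-exposed and control offspring, in the same direction, in both the hippocampus and the whole blood. These 680 cytosines, called members here (0.0380% of those with this coverage), were chosen on exactly these differences, so the differences themselves are given as a description and no test is made of them. Members were evenly split by direction, with 365 hypermethylated (53.7%) and 315 hypomethylated (46.3%) with sGC exposure, and by strand, with 355 on the plus and 325 on the minus strand. Most of them had no neighbor within 50 bp that moved by 10 points or more with them in both tissues, but such moves were rare everywhere. Of all cytosines with at least 50 reads, 0.754% were higher and 0.241% lower by this much in both tissues. Among neighbors that were not members, 4.52% on the strand of the member and 5.69% on the opposite strand moved with it. The cytosine on the other strand of the same CpG had at least 50 reads at 194 members, and at 171 of these it moved with the member. At 110 of the 194 it was a member itself, and at the other 84 it moved with the member in 61.

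The data are RRBS libraries from 12 female guinea pigs (Hartley strain), 1 from each litter, killed on postnatal day 14. Of these, 6 were born to dams injected with betamethasone, a synthetic glucocorticoid (sGC), at 1 mg/kg, and 6 to saline-injected dams (control), with the 3 courses starting on gestational days 40, 50 and 60 and ending on days 41, 51 and 61. Hippocampus and whole blood came from the same animals, which gives 4 groups of 6 samples, and both tissues are mixtures of cell types. Methylation alone was measured, so that the tissue labels could not be checked against marker expression. The deposited tables hold the reads of the 6 animals of a group as a sum, called a pool here, so that each cytosine has 1 value per group. From these sums the spread between animals is not known, and no difference between pools was checked against replicates here. An adjusted p-value per cytosine from the authors' own comparison is also given in the tables but was not used.

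In a CpG the cytosine of each strand can carry a methyl group, and the methylation of the 2 strands is normally copied together at cell division. Methylation is also usually shared by CpGs that lie close to each other, and many CpGs differ in methylation between brain and blood cells. RRBS reads DNA cut at MspI sites after bisulfite treatment, which turns an unmethylated cytosine into a base that is read as T and leaves a methylated one as C. A T in the genome of an animal is read in the same way as an unmethylated cytosine. As each animal came from another litter and the reads were summed, a difference in methylation between the exposures and a difference in sequence or methylation between the litters cannot be told apart in these data.

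The table of the hippocampus listed 2869370 cytosines and that of the blood 2927801, of which 2564116 were in both. The coverage of the members was close to that of all cytosines with at least 50 reads. In hippocampus the median was 115 reads (sGC) and 102 reads (control) at members, against 124 and 111 over all these cytosines. In blood it was 120 and 97, against 130 and 108. The ratio of sGC to control coverage, scaled by the summed coverage of the pools, was also similar, with a median log2 ratio of 0.07 at members and 0.02 over all in hippocampus and of -0.01 and 0.00 in blood. Coverage at this depth leaves wide limits on each percentage, and the 95% Wilson intervals given below cover counting error only.

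In the hippocampus, 1682 cytosines (0.0941% of those with at least 50 reads) were hypermethylated by 25 percentage points or more and 645 (0.0361%) were hypomethylated as much. In the blood these numbers were 1323 (0.0740%) and 987 (0.0552%). In either direction, 2327 (0.130%) were shifted this far in hippocampus and 2310 (0.129%) in blood, and the members made up 29.2% and 29.4% of them. A single cytosine (1, or 5.59e-05%) was shifted this far in both tissues with opposite signs, against the 680 with the same sign. In all, 0.0204% of the cytosines with at least 50 reads were hypermethylated members and 0.0176% hypomethylated members.

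**Figure D1:**
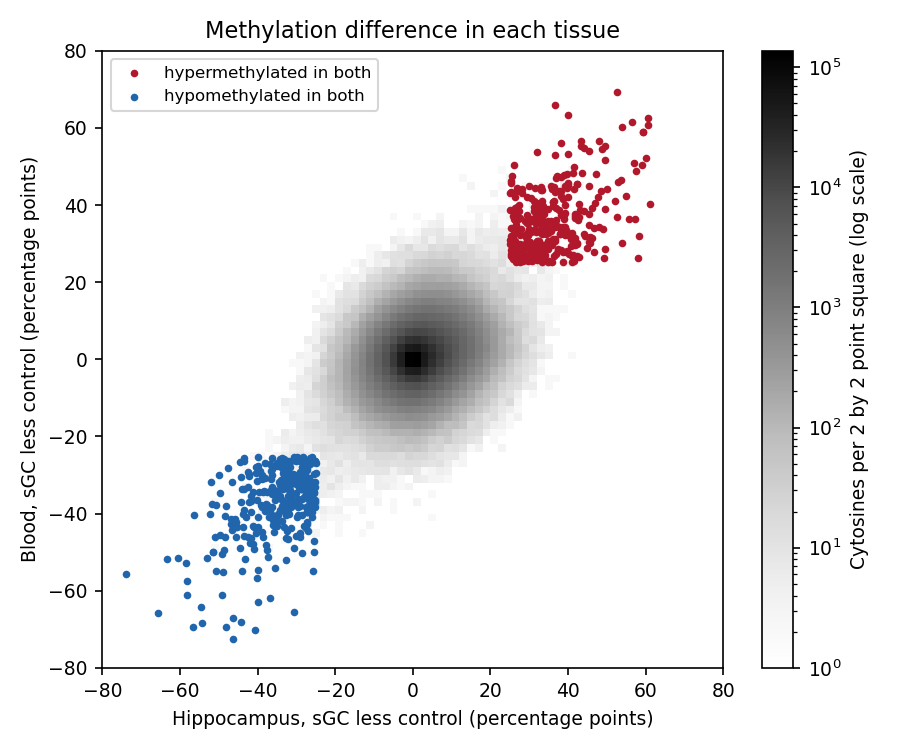
Methylation difference of sGC less control in hippocampus (horizontal axis) and in blood (vertical axis), in percentage points. Gray squares count all 1787905 cytosines with at least 50 reads on a log scale, and points are the 365 hypermethylated (red) and 315 hypomethylated (blue) members, which reach 69.2 and -73.9 points.

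Among the hypermethylated members, the median methylation in hippocampus was 29.8% in controls and 67.9% with sGC exposure, and in blood it was 35.3% and 73.3%. Among the hypomethylated members it was 65.2% in controls and 27.4% with sGC exposure in hippocampus, and 64.9% and 24.6% in blood. The median difference of the hypermethylated members was 33.4 percentage points in both tissues, and that of the hypomethylated members was -33.6 in hippocampus and -35.6 in blood. Members had to pass the same threshold in both tissues, which brings these medians close to each other. The differences of the tissues lay within 5 percentage points of each other at 323 of the 680 members. The larger difference was in blood for 370 of the members.

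The members were mostly at intermediate levels. Both groups were between 10 and 90% in both tissues at 448 of them. In the control hippocampus, 8.82% of the members were at 10% or less or at 90% or more, whereas 56.5% of all cytosines with at least 50 reads were, and in the control blood the shares were 9.71% and 66.6%. In the sGC pools they were 16.3% and 57.5% in hippocampus and 17.6% and 71.3% in blood. Some members did reach an end of the scale: the lower of the groups was at 10% or less in both tissues at 81 members, of which 56 were hypomethylated, and the higher group was at 90% or more in both tissues at 43, of which 28 were hypermethylated. A difference of 25 points leaves no room for both groups at the same end, so that the rule itself favors intermediate levels.

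**Figure D2:**
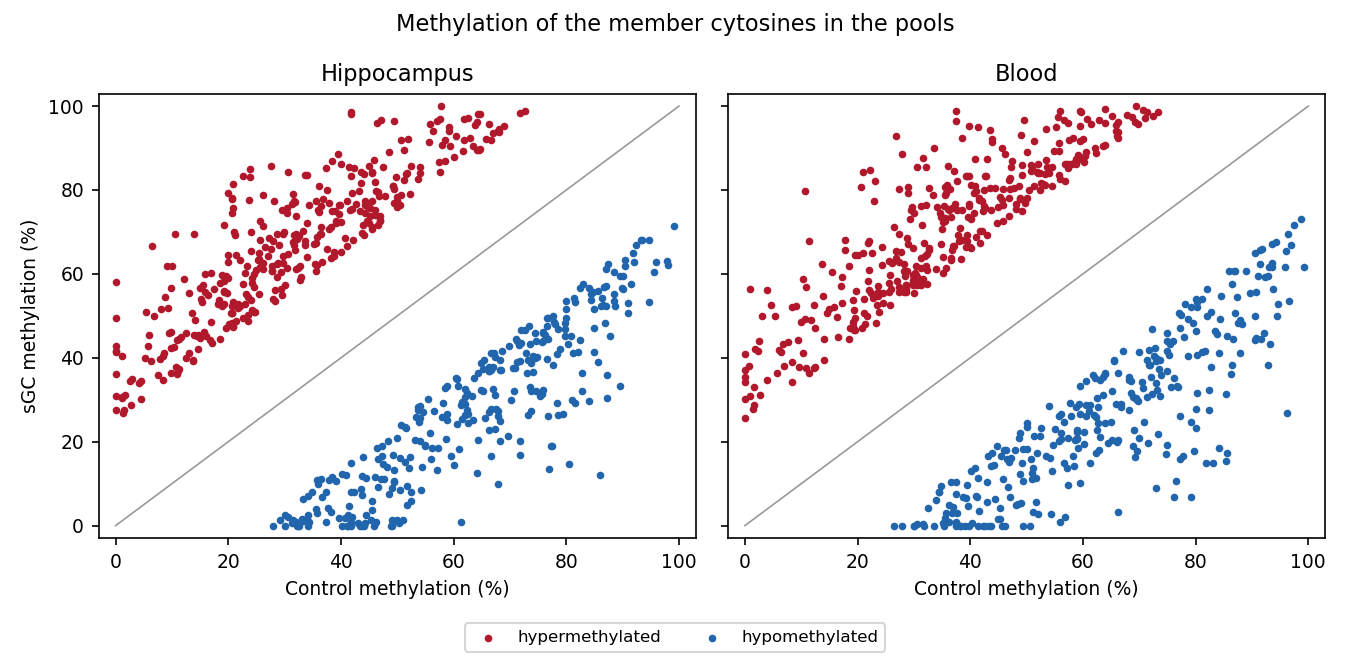
Methylation of each member in the control pool (horizontal axis) and the sGC pool (vertical axis), in percent, in hippocampus (left) and the blood (right). Hypermethylated members (red) lie above the line of equal values and hypomethylated members (blue) below it, and a row of hypomethylated members lies near 0% with sGC exposure.

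The hypermethylated member with the largest shift, by the smaller of its differences in the 2 tissues, was at position 71882703 of scaffold DS562857.1 (build cavPor3), on its minus strand. It was methylated in 81.5% of 119 reads (interval 73.6 to 87.5) with sGC exposure and 20.8% of 77 (13.2 to 31.1) in controls in hippocampus, and in 88.6% of 114 (81.5 to 93.2) and 27.8% of 54 (17.6 to 40.9) in blood. The sGC pool was 60.7 points higher in hippocampus and 60.8 points higher in blood. The position lies between positions that the study's annotation places in *CDK5RAP2*, which encodes a protein of the centrosome needed for the division of neural progenitors. It was the only member between positions with the same gene name. Genes were named only in this way, without an annotation of the build, so other members may lie in genes too. It had 2 neighbors within 50 bp, both on the same strand. The one 21 bp away had 100% (sGC) and 96.1% (control) in hippocampus and 95.7% and 90.7% in blood. The one 34 bp away had 97.5% and 96.1% in hippocampus and 94.8% and 85.2% in blood, a difference of 9.60 points in the direction of the member in blood.

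Of the other hypermethylated members with the largest shifts, that on the plus strand of scaffold DS562968.1 at 2270969 had 83.3% (sGC) and 22.7% (control) in hippocampus and 84.8% and 22.2% in blood. The one at 16182397 on the minus strand of DS562861.1 had 79.4% and 20% in hippocampus and 82.1% and 23.1% in blood, from 130 to 184 reads. Both of these had nearly the same levels in the 2 tissues. On the plus strand of DS562887.1, the member at 1849045 had 83.1% and 23.9% in hippocampus and 96.5% and 37.5% in blood, and the member at 1874978 had 98.1% and 41.7% in hippocampus and 98.9% and 37.4% in blood. At the latter nearly all reads of the sGC pools were methylated in both tissues.

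The hypomethylated member with the largest shift was on the plus strand of scaffold DS562861.1 at 16414186. It was methylated in 14.6% of 96 reads (interval 8.89 to 23.0) with sGC exposure and 80.4% of 107 (71.9 to 86.8) in controls in hippocampus, and in 10.7% of 112 (6.24 to 17.8) and 76.6% of 107 (67.8 to 83.6) in blood. Its differences, -65.8 points in hippocampus and -65.9 in blood, were nearly equal. At 40713724 on the minus strand of DS562870.1 the levels were 30.5% and 87.2% in hippocampus and 26.9% and 96.3% in blood. On the plus strand of DS562883.1, the member at 21006285 had 9.84% and 67.9% in hippocampus and 16.7% and 77.8% in blood, and the member at 21019779 had 12.1% and 86.0% in hippocampus, the largest difference in that tissue (-73.9 points), and 19.3% and 75% in blood. These members were picked for large differences in both tissues, so the distance between their control and sGC pools is set by that choice.

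Close to the threshold, the 3 members just inside it had a smaller difference of 25.005, 25.009 and 25.019 points, and the 3 cytosines just outside it had 24.987, 24.986 and 24.982 points.

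The contrast between the tissues was not the one the rule used, but it is drawn from the same 4 percentages. A shift of 25 points with the same sign in both tissues limits how far the tissues can differ, so that part of the nearness described next is set by the choice of members. Between the control blood and the control hippocampus, a two-sided Fisher's exact test, with Benjamini-Hochberg adjustment over the cytosines with at least 50 reads (adjusted p below 0.05 and at least 5 points), called 53 members (7.79%), against 23.9% of all these cytosines. Between the sGC pools it called 112 members (16.5%), against 25.5%. At 545 members neither contrast was called. The median absolute difference between the tissues was 5.66 points at members in controls and 6.50 with sGC exposure, whereas over all cytosines, most of which are near 0 or 100%, it was 3.78 and 3.54.

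Among cytosines at 20 to 80% in the control hippocampus, a range chosen after the data were seen, the levels of the tissues differed by a median of 6.07 points at the 521 members and by 18.9 points at all 451826 cytosines in controls. The test between the control tissues called 34 of these members (6.53%), against 61.7% of all, and that between the sGC tissues called 81 (15.5%), against 62.5%. The test takes reads as independent and compares pools of the same animals. Members were chosen on these same percentages, so the lower shares are partly set by that choice and are a description.

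The tissue difference was called in at least 1 exposure at 135 members, and in both exposures with the same sign at 30. On the minus strand of scaffold DS563201.1, 4 members from 250475 to 250518 had a mean methylation of 27.7% with sGC exposure and 1.40% in controls in hippocampus, and of 83.9% and 56.8% in blood. The mean shift on this strand was 26.3 points in hippocampus and 27.1 in blood, where the rule asked for 25 points in each, and the blood was far more methylated. The 4 members were picked on these values and had nearly equal coverage (51 or 52 reads in sGC hippocampus), so no test is given. Where their other strand had at least 50 reads, it moved the same way by 1.36, 0.231 and 8.15 points in hippocampus. In blood it moved by 24.7, 23.6 and 15.9 points. Leaving out the other members of the 4, each had 17 to 19 neighbors within 50 bp, of which 5 or 6 moved by 10 points or more with it in both tissues.

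The other strand of a CpG is read from other reads of the same animals. The cytosine on the other strand of the CpG was listed in both tables for 270 members (39.7%, against 44.1% for all cytosines with at least 50 reads), and 194 members had at least 50 reads there in every pool. Of these 194, 171 (88.1%) had an other strand that moved by 10 points or more in the direction of the member in both tissues, 93 of 108 for hypermethylated and 78 of 86 for hypomethylated members. The median difference of the other strand, taken in the direction of the member, was 28.5 points in hippocampus (quartiles 20 and 37.0) and 32.3 in blood (23.1 and 39.7). At 110 of the 194 the other strand was a member itself and so had passed the rule. Of the other 84, which by the rule moved by under 25 points in a tissue, 61 (72.6%) moved by 10 points or more with the member in both tissues, with medians of 17.3 points in hippocampus and 21.7 in blood. Among all cytosines with at least 50 reads, 0.754% were higher and 0.241% lower by 10 points or more in both tissues. By Fisher's exact test of sGC against control, adjusted over all cytosines listed for the tissue, 18 of these 84 (21.4%) were called in the direction of the member in hippocampus and 40 (47.6%) in blood, against 0.163% and 0.486% of the cytosines with at least 50 reads and 0.112% and 0.317% of all cytosines listed, in either direction.

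These 110 lie in 55 CpGs in which the cytosines of both strands were members, so that the 680 members fall into 625 CpGs. The CpG with the largest mean difference over both strands was on scaffold DS562970.1 at 731569. Its plus strand was methylated at 36.5% with sGC exposure and 82.8% in controls in hippocampus and at 6.73% and 79.1% in blood, and its minus strand, at 731570, at 41.4% and 82.0% in hippocampus and 15.3% and 85.4% in blood. On each strand the sGC pool thus lay below the control pool, in hippocampus and in blood alike. The sGC blood also lay below the sGC hippocampus on each strand. This CpG was picked for a large difference in these same percentages, so no test of the gap between the tissues is given. At the CpG of scaffold DS562874.1 at 12718237, the plus strand had 18.9% and 77.4% in hippocampus and 16.4% and 69.2% in blood, and the minus strand 20.2% and 71.8%, and 19% and 68.9%. Here all 4 pools gave like values on the 2 strands. The third such CpG, on the short scaffold DS564270.1 at 1860, had 42.0% and 78.8% in hippocampus and 17.9% and 79.7% in blood on the plus strand.

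At 23 of the 194 members the other strand moved by under 10 points in at least 1 tissue, and at none did it move by 5 points or more against the member. The member at 2791752 on the plus strand of DS562947.1 was methylated at 75% with sGC exposure and 39.0% in controls in hippocampus and at 83.4% and 42.6% in blood. Its other strand had 86.6% and 89.0% in hippocampus and 97.4% and 98.8% in blood, high in every pool. The same was seen at 3221535 on DS562938.1, where the member had 59.6% and 89.6% in hippocampus and 71.7% and 97.5% in blood and the other strand between 95.6% and 100%. At 33957809 on DS562870.1 the member had 40.5% and 74.1% in hippocampus and 60.8% and 89.0% in blood, and the other strand between 84.5% and 97.6%.

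Within a pool, Fisher's exact test of one strand against the other, adjusted over the 332260 CpGs with at least 50 reads on both strands in every pool, called 14 of the 139 CpGs with a member in sGC hippocampus (10.1%, against 1.10% of all CpGs), 10 in control hippocampus (7.19%, against 0.832%), 13 in sGC blood (9.35%, against 0.643%) and 10 in control blood (7.19%, against 0.656%). The strands of most CpGs with a member thus did not pass as different in any given pool. The median absolute difference between the strands was 4.95 to 6.07 points at CpGs with a member and 1.85 to 2.27 over all. The rule asked for a large shift on 1 strand and favors intermediate levels, and both leave more room for unequal strands than at other CpGs, so nothing is read from the distance to the values of all CpGs.

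Most neighbors of the members moved by under 5 points, as did most cytosines. A neighbor is another cytosine with at least 50 reads in every pool within 50 bp, the other strand of the same CpG left out, and 653 of the 680 members had at least 1, with a median of 4. Of the 653, 551 (84.4%) had no neighbor that moved by 10 points or more in their direction in both tissues, and 511 had none that moved by 5 points. The share of other cytosines without such a neighbor was not computed, so nothing particular to the members is read from these counts. Leaving out neighbors that were members themselves, 65 of 649 members (10%) had one that moved by 10 points or more with them. The 2375 distinct neighbors that were not members had a median difference, in the direction of the member, of 0.745 points in hippocampus and 0.412 in blood. Of these neighbors, 70.9% in hippocampus and 76.5% in blood moved by under 5 points, against 76.2% and 79.2% of all cytosines with at least 50 reads. The Fisher test called 24 of them (1.01%) in hippocampus and 37 (1.56%) in blood, against 0.163% and 0.486% of all cytosines with at least 50 reads. Many neighbors lie on the same reads as the member, which were 75 bases long. Over all pairs of a member and a neighbor within 50 bp, 13.7% of the neighbors on the strand of the member and 6.55% of those on the opposite strand moved by 10 points or more with it in both tissues. Over all cytosines with at least 50 reads, 0.754% were higher and 0.241% lower by 10 points or more with sGC exposure in both tissues, so that the shares among neighbors lay above these values. The shares rested in part on a single stretch with 12 members (on scaffold DS562862.1) and were 7.47% and 3.45% without it. Counting only neighbors that were not members, they were 4.52% and 5.69%, and 4.52% and 2.52% without this stretch. On the strand of the member, the share of these neighbors was 4.69% within 10 bp, 4.68% from 11 to 25 bp, 4.27% from 26 to 50 bp, 5.61% from 51 to 100 bp and 9.02% beyond that up to 200 bp, with no decline with distance on this strand. On the opposite strand the shares over the same distances were 5.52%, 7.23%, 4.85%, 3.89% and 1.72%. Without the stretch of 12 members they were 1.75%, 2.93%, 2.53%, 3.09% and 1.86%. The local density of measured cytosines was like that of other sites, with a median of 4 cytosines within 50 bp for the members and for all cytosines with at least 50 reads.

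**Figure D3:**
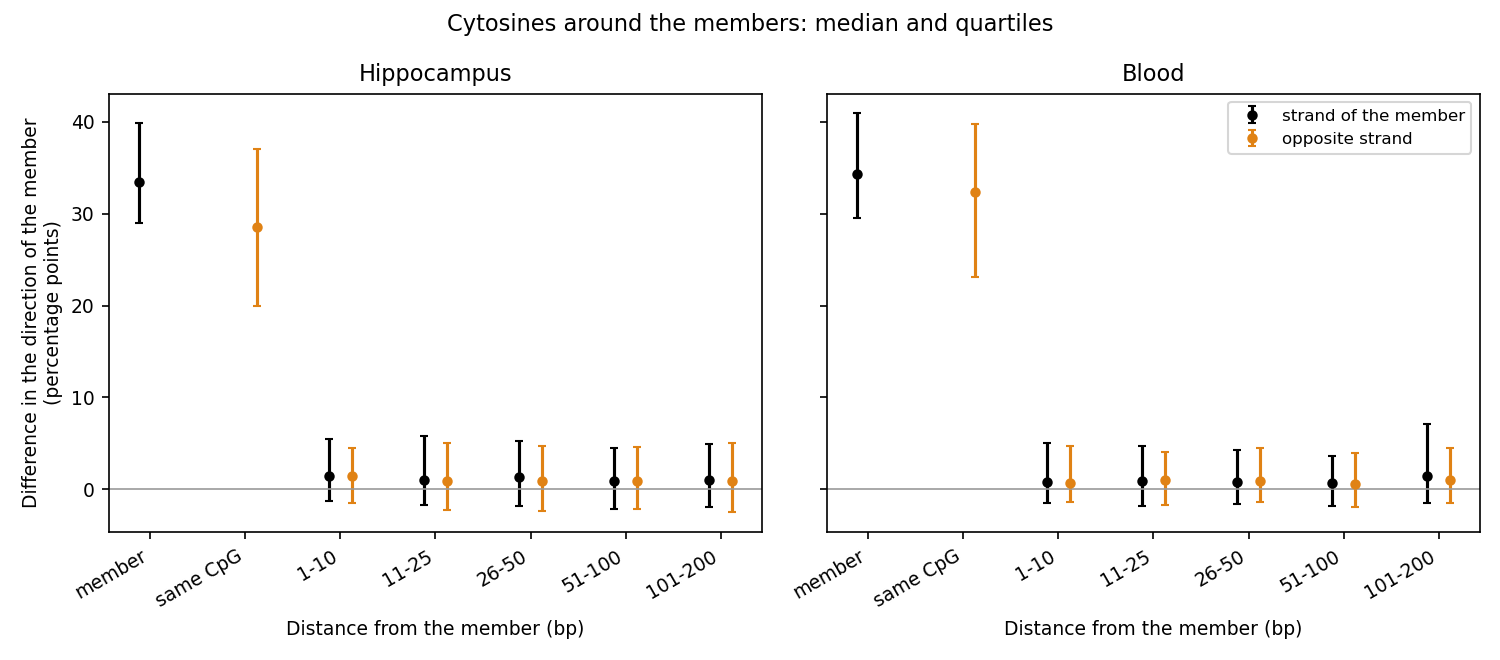
Difference of sGC less control, taken in the direction of the member, at members, at the other strand of the same CpG and at neighbors by distance in bp, in hippocampus (left) and the blood (right); points are medians and bars run from the lower to the upper quartile. The other strand, at 110 of 194 a member itself, lies at medians of 28.5 and 32.3 points, and the medians of all neighbors up to 200 bp lie near 0 on both strands.

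Of the 10 members with the largest shifts, 5 in each direction, the one with the most neighbors is an example. On the minus strand of DS562859.1 at 59128251, methylation was 19% of 163 reads with sGC exposure and 77.3% of 141 in controls in hippocampus, and 17.1% of 170 and 74.7% of 150 in blood. The 13 neighbors within 50 bp differed between the exposures by -4.64 to 8.13 points in hippocampus and by -1.84 to 5.04 in blood. The neighbor 2 bp away on the same strand was methylated at 96.9% and 98.6% in hippocampus and at 97.7% and 96.6% in blood. On the other strand of the CpG itself, methylation was 89.6% and 86.7% in hippocampus and 84.0% and 86.7% in blood. The loss was therefore seen at a single cytosine, with the other cytosines within 50 bp at 79.8% or more in all 4 pools.

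Members within 200 bp of the next one were taken as a cluster, which gave 578 clusters. A member was alone in 495 of them (72.8% of the members). There were 75 clusters of 2 members, 51 of which were both cytosines of a CpG, and 5 of 3 members, 2 of 4 and 1 of 12.

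In the cluster of 12 a whole stretch was chosen by the rule. Besides the other members, each of the 12 had 4 to 6 neighbors within 50 bp, of which 2 to 4 moved by 10 points or more with it in both tissues. On the plus strand of scaffold DS562862.1, all 12 members from 30987558 to 30987614 were hypermethylated with sGC exposure. Their methylation was 48.2 to 52.9% with sGC exposure and 18.1 to 22.9% in controls in hippocampus, and 55.6 to 59.8% and 26 to 31.2% in blood. The values were nearly equal from one cytosine to the next, and the coverage was too, with 117 or 116 reads at each in the sGC blood, so that the 12 cytosines were largely read from the same molecules. On the minus strand of this stretch the shift was smaller: the cytosine 34 bp after the first member had 42.9% and 31.5% in hippocampus and 45.2% and 29.5% in blood. Further on, 146 bp after the first member, the minus strand had 57.1% and 22.1% in hippocampus and 51.1% and 50% in blood, a shift of 35 points in hippocampus and of 1.11 in blood. The plus strand, 141 bp after the first member, had 36% and 36.8% in hippocampus and 54.3% and 29.4% in blood, a shift of -0.842 points in hippocampus and of 24.9 in blood. The size of the shift thus varied with strand and tissue along 200 bp of a region at intermediate methylation.

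**Figure D4:**
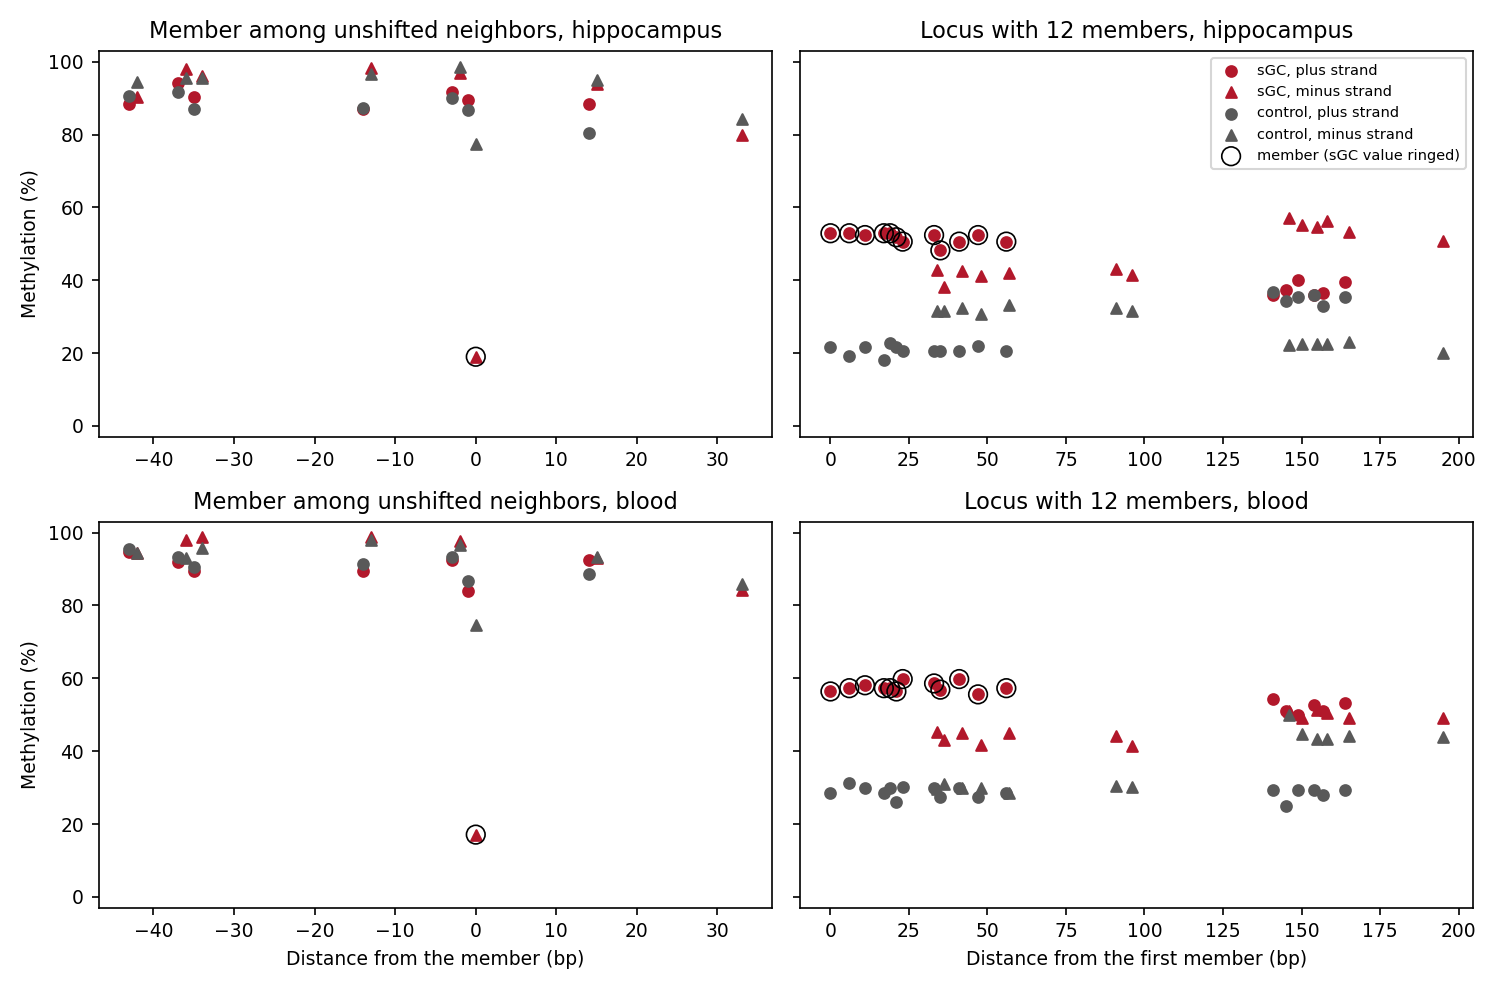
Methylation in percent at each cytosine with at least 50 reads, by distance in bp, around the member of scaffold DS562859.1 (left) and the 12 members of DS562862.1 (right), in hippocampus (top) and the blood (bottom). Red marks the sGC pool and gray the control pool, circles the plus and triangles the minus strand, and the sGC values of members are ringed; on the left only the member leaves the band of high methylation, and on the right all 12 members lie at about the same level.

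Of the other clusters, that on DS562908.1 held 4 members from 7476968 to 7477114, with a mean of 37.3% with sGC exposure and 0.301% in controls in hippocampus and of 33.3% and 0.830% in blood. At these 4 cytosines methylated reads were thus almost confined to the sGC pools. Within 50 bp of the member at 7477114 were 7 neighbors, none of them a member. These differed by -7.04 to 7.45 points in hippocampus and by -3.52 to 5.26 in blood. The member at 7476968 was methylated in 41.7% of 84 reads with sGC exposure against 0 of 83 in controls (a bound of 3 reads allows up to 3.61%, and the Wilson limit is 4.42%) in hippocampus, and in 37.1% of 105 against 0 of 68 (up to 4.41%, and 5.35% by Wilson) in blood. Its other strand moved in the same direction by 1.80 points in hippocampus and 8.06 in blood. At the CpG starting at 7476975 both strands were members, with 40.5% against 1.20% in hippocampus and 34.3% against 0% in blood on the plus strand.

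In 4 clusters, members moved in opposite directions. On the plus strand of DS562966.1, the member at 3491252 fell from 36.4% in controls to 11.1% with sGC exposure in hippocampus and from 38.7% to 6.90% in blood, while 2 bp away, at 3491254, methylation rose from 57.9% to 90.7% in hippocampus and from 57.7% to 86.2% in blood. On the plus strand of DS562900.1, the member at 15698881 had 48.8% with sGC exposure and 23.5% in controls in hippocampus and 67.8% and 22.1% in blood, and the one at 15698906 had 46.6% and 72.7%, and 35.2% and 76.1%. Each of these cytosines shifted in its own direction in both tissues, although a read can span both positions. The remaining 2 clusters of this kind were on DS562882.1 and DS563093.1, and spanned 144 and 183 bp.

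Most members were the only one within 200 bp, but many lay in the same windows of 1 Mb as others. They lay on 129 of the 1281 scaffolds with a cytosine of at least 50 reads and in 291 of 3720 windows of 1 Mb. The 13 windows with 10 or more members held 175 of them (25.7%) and 2.45% of the cytosines, and the 32 windows with 5 or more held 289 (42.5%) and 6.12% of the cytosines. These windows were picked for their members, so the shares are a description. Over all scaffolds there were 3.80 members per 10000 cytosines.

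The scaffold with the most members was DS562870.1, with 54, of which 34 were hypomethylated. All but the first, at 10795066, lay in the last 8 Mb of the scaffold, which hold 51.8% of its cytosines with at least 50 reads. Its window from 41000001 to 42000000 had 21 members, 9 of them hypermethylated, and the one before it had 11, none of them hypermethylated. Among the 23 scaffolds with 10 or more members, the density was highest on DS563093.1, with 12 members among 1145 cytosines (105 per 10000). On DS563081.1 all 15 members were hypomethylated and on DS563189.1 all 11 were hypermethylated, whereas DS563033.1 had 10 hypermethylated and 11 hypomethylated members. Of the 32 windows with 5 or more members, 16 held both directions.

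**Figure D5:**
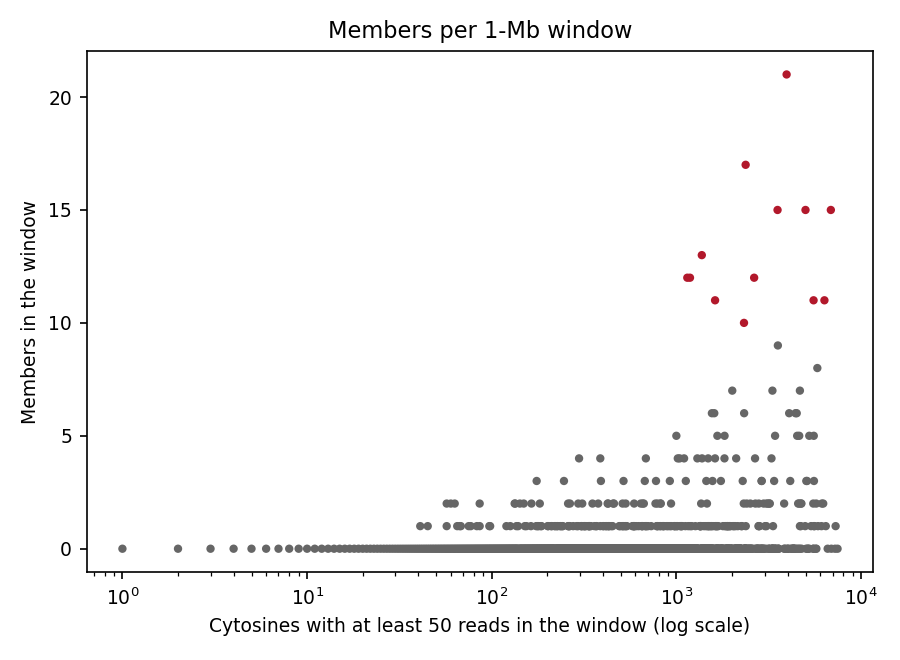
Number of members (vertical axis) against the number of cytosines with at least 50 reads (horizontal axis, log scale) in windows of 1 Mb, where a point can stand for several windows with the same numbers. Red points are the 13 windows with 10 or more members, and most windows with as many cytosines have few members or none.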

How the data were processed

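DNA methylation was measured by RRBS in 24 samples, hippocampus and blood of 12 animals. The authors trimmed reads with Trim Galore (quality 30) and a NuGEN script, aligned them with Bismark 0.16.0 and sorted them with SAMtools 1.7 (versions from the submitters' processing notes), with cavPor3 as the build named in the paper. They deposited 1 table per tissue, holding read counts per cytosine, total and methylated, as plain sums of the 6 animals in each group (10 or more reads). The deposited FDR, a p-value adjusted by the authors for their own comparison, was not used. For that comparison the paper names MethPipe, with batch as a covariate. A genome or annotation of the build was not used here, so that no sequences are printed, and gene names came from positions the study's annotation names.

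Positions are as the deposited tables give them, and whether they count from 0 or 1 is not given in the sources used here. Methylation percentages and differences were computed per cytosine. Members needed 50 reads in all 4 pools and a difference of 25 points with the same sign in both tissues. The tests were two-sided Fisher's exact tests on summed counts with Benjamini-Hochberg adjustment over the cytosines or CpGs named with each result, called at 0.05 with at least 5 points. They were tested on simulated data. They take reads as independent and compare pools, not animals. The members, lists and tests were chosen with earlier results of these data known. The text names, per direction, the 5 members with the largest smaller difference, 1 per cluster, the 3 largest clusters, the 3 CpGs with the largest mean difference on both strands, the 3 members whose other strand moved least and the 3 values at each side of the threshold. Clusters with both directions, scaffolds and windows were chosen after their values were seen. Alternatives changed minimum reads, minimum difference, cluster gap, window and strand handling. Scripts ran in Python 3.11.15 with scipy 1.17.1, matplotlib 3.10.9, pandas 2.3.3, numba 0.67.0 and numpy 2.4.6.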

Additional observations from a re-analysis of the deposited data

Results flagged for a closer look

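The cytosine on the plus strand of scaffold DS562935.1 at 7384513 was the only one with at least 50 reads that was shifted by 25 percentage points or more in opposite directions in the tissues. It was methylated in 65.6% of 64 reads with sGC exposure and 40% of 60 in controls in the hippocampus (difference 25.6 points), and in 50.7% of 75 and 76.1% of 67 in the blood (difference -25.5 points). By Fisher's exact test of sGC against control, neither difference was called (adjusted p = 0.572 in hippocampus and 0.219 in blood). The difference between the tissues' changes was not tested.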

How the results depend on the processing

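The number of members followed the thresholds, and both directions stayed nearly balanced at each. There were 607 hypermethylated and 526 hypomethylated members at a minimum of 20 reads, and 148 and 124 at 100 reads. With a minimum difference of 20 points there were 654 and 573, and with 30 points 186 and 175. A minimum of 30 reads, both strands summed per CpG, leaving out the 0.1% of cytosines with the most reads or the scaffold with the most members, and cluster gaps of 50 and 1000 bp moved the numbers by less than 1.5 times. The share of members whose other strand moved with them rose with the depth of that strand, from 77.5% at 20 reads and 80.9% at 30 to 94.6% (88 of 93) at 100, and was 56.7% when a shift of 25 points was asked for and 72.6% without other strands that were members. The share of members with a shifted neighbor was 12.7% within 25 bp, 10% (65 of 649) without neighbors that were members, and 21.7% and 9.80% for shifts of 5 and 25 points. The share of shifted cytosines that were members also rose with depth, from 12.3% (20 reads) and 17.6% (30 reads) to 48.4% (100 reads) in the hippocampus and from 15.8% and 20.3% to 39.8% in the blood. The calls between tissues and between strands changed by less than 1.5 times under every alternative run. Leaving out the scaffold with the most members, leaving out other strands or neighbors that were members and the depth behind the shares of shifted cytosines were alternatives chosen after the data were seen. No paired analysis was possible because the tables hold sums over the animals of a group, and for the same reason no animal could be left out.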

Other observations

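Of the 645 cytosines hypomethylated by 25 points or more in the hippocampus, 520 (80.6%) were lower by 10 points or more in the blood too, against 772 of the 1682 hypermethylated ones (45.9%) that were higher there. At a minimum of 100 reads, 60.8% of 204 hypomethylated and 41.3% of 358 hypermethylated cytosines of the hippocampus were members. From the blood to the hippocampus the values were 615 of 987 hypomethylated cytosines of the blood (62.3%) and 786 of 1323 hypermethylated ones (59.4%) that moved by 10 points or more the same way in the hippocampus. The difference between the directions was not tested, since cytosines of the same animals are not independent.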
